A study of Mus musculus with 7 samples.

Results

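SR proteins and heterogeneous nuclear ribonucleoproteins (hnRNPs) are the nuclear RNA-binding proteins that choose which exons of a transcript are joined. Their mRNAs were compared between CD8+ T cells treated with small extracellular vesicles (sEVs) from leukemic spleens and cells treated with sEVs from healthy spleens. Members were the genes in the deposited count table with a symbol that begins with Srsf and a digit or with Hnrnp, that does not end in -ps, and that averaged 5 or more counts over the 7 libraries. Of 55367 genes in the table, 32 had such a symbol, 11 of them SR and 21 hnRNP, and 30 reached the minimum, 10 SR and 20 hnRNP. Srsf12 stayed under it with at most 5 counts in a library, and Hnrnpa1l2-ps2, an annotated processed pseudogene whose name escapes the rule, was at 0 in all 7 libraries.

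The cells were CD8+ T cells sorted by FACS from spleens of mice of the strain Foxp3 YFP/cre, which carries a Cre-YFP reporter in the Foxp3 gene in both groups, and they were treated in vitro for 48 h with sEVs, at 100 µg/mL in both groups by the labels. The study's methods instead set the amount by what each kind of spleen holds, so the source and the amount of vesicles may differ together and then cannot be told apart. For CD8+ T cells the methods describe culture on a coat of anti-CD3 antibody, with anti-CD28 antibody and IL2 in the medium. The 48 h culture for RNA-seq is not described apart from this, so the cells of both groups were presumably stimulated. Control sEVs came from the microenvironment of healthy spleens (HCME-sEV, 4 libraries) and leukemia sEVs from the microenvironment of spleens of Eµ-TCL1 mice (LME-sEV, 3 libraries), in which a TCL1 transgene driven in B cells gives a disease that models chronic lymphocytic leukemia. The comparison is between cells given vesicles of one or the other kind, and no library of cells without vesicles was analysed here. Groups and their sizes follow the labels and the column names. The study's text gives the sizes the other way round, and every direction below would turn if the labels were swapped. The labels do not say that the libraries of a group came from separate animals or cultures, so each p-value measures only the spread between these libraries, which may be technical.

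SR proteins bind exonic enhancer sequences through RNA recognition motifs, recruit the spliceosome through a domain rich in arginine and serine, and are moved and activated by phosphorylation. The hnRNPs coat nascent transcripts and often act against SR proteins at the same exon, and they also take part in export, translation and decay of mRNA. Both families are abundant in dividing cells, and T cells change the splicing of many transcripts when they are activated, the surface phosphatase CD45 being the best known, which is regulated by hnRNP LL. Many genes of both families limit their own protein by splicing in a premature stop that sends the transcript to nonsense-mediated decay (NMD).

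Most of the 30 splicing factors did not pass the test, and the 4 that did all fell. With LME-sEVs, Srsf6, Srsf2 and Srsf1 of the SR family and Hnrnpdl of the hnRNP family passed a false discovery rate (FDR, the Benjamini-Hochberg adjusted p of edgeR's quasi-likelihood test over 12623 tested genes) of 0.05. Srsf6 fell by 20.9%, Srsf2 fell by 18.3%, Srsf1 fell by 15.2% and Hnrnpdl fell by 25.7%. Of all tested genes, 5.21% were called lower at this FDR and 3.75% higher. In bulk RNA a lower level can come from fewer cells of a type or from less RNA per cell, and these cannot be told apart. No member was called higher, and none reached the log2 fold change of 1 beyond which the study calls a gene differentially expressed. That stricter call was met by 1.28% of the tested genes.

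The sequences just upstream of Srsf6, Srsf2 and Srsf1 are shown because these are the SR genes that passed the test. They were taken from RefSeq on build GRCm38.p6 and hold the 120 bases before the annotated start site, 5′ to 3′ on the gene's strand. Capitals mark complete matches on either strand to the E-box CACGTG, the CCAAT box CCAAT, the GC box GGGCGG and the TATA box TATAAA.

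Srsf6 (chr2:162931388-162931507, plus strand): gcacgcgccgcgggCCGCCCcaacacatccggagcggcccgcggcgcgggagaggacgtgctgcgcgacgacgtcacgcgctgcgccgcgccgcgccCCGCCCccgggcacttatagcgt

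Srsf2 (chr11:116853095-116853214, minus strand): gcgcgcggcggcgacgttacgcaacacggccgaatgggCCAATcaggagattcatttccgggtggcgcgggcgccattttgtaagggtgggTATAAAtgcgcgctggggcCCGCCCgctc

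Srsf1 (chr11:88047253-88047372, plus strand): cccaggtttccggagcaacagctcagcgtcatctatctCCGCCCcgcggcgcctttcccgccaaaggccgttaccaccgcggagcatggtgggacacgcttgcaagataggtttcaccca

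Each of the 3 windows held a GC box. Srsf2 held a CCAAT box that begins 82 bases before the start, a TATA box 29 bases before it and a GC box 10 bases before it. Srsf6 held GC boxes 106 and 23 bases before its start, and Srsf1 held a GC box 82 bases before its start and a CCAAT box that begins 3 bases before the start and runs past the window's end. The window of Hnrnpdl is not printed, because its RefSeq start lies inside the GENCODE span of the gene, so that bases before the one start lie within the other's gene. Over the whole 300-base promoter (250 bases before the start and 50 after it), a GC box was present in 9 of 10 SR genes (90%), in 14 of the 18 hnRNP genes with an entry in the promoter table (77.8%) and in 68.5% of the 9247 tested genes with an entry. The E-box was present in 0 of 10 SR promoters, in 5 of 18 hnRNP promoters (27.8%) and in 11.8% of tested genes, and the CCAAT box in 4 of 10, 13 of 18 (72.2%) and 43.7%. The TATA box was present in 2 of 10 SR promoters, in 2 of 18 hnRNP promoters (11.1%) and in 8.66% of tested genes. Among all 27025 genes in the promoter table the shares were 38.2% for the GC box, 8.09% for the E-box, 41.1% for the CCAAT box and 15.7% for the TATA box. A gene with several annotated starts counted once if any of its promoters held the letters, and a match is only a match of letters.

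Levels are given as CPM, the counts of a gene divided by the library's total and set to a common total, with TMM, a factor per library that removes differences in composition. In 3′ tag sequencing each captured mRNA gives 1 tag near its end, so transcript length does not enter and CPM can be set side by side between genes, though only roughly. Differences in capture between genes were not measured, and some members share near-identical 3′ ends with other genes, as given below. Srsf2, which binds enhancers of constitutive and alternative exons, was the most abundant SR gene. In the HCME-sEV libraries it measured 810.0, 789, 723 and 818 CPM, and with LME-sEVs it measured 687, 584 and 651 CPM. All 3 LME-sEV libraries lay below all 4 HCME-sEV libraries. The means were 785 ± 43.2 CPM (SD, n = 4) and 641 ± 52.5 CPM (SD, n = 3), a log2 fold change of -0.29 (SE 0.08, 95% interval -0.45 to -0.13, FDR = 0.022). The call was lost without HCME-sEV replicate 2 (FDR = 0.0657) or 4 (FDR = 0.0551) and without LME-sEV replicate 2 (FDR = 0.162) or 3 (FDR = 0.0831), while the log2 fold change stayed between -0.34 and -0.23. Srsf2 lies at chr11:116849901-116853094, and its exons overlap those of Mettl23 and Mfsd11 on the other strand, whose reads can be told apart only if strand was used in counting.

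Srsf6, a splicing factor that also binds exonic enhancers, showed the largest fall in the SR family. It measured 216, 228, 229 and 207 CPM with HCME-sEVs and 164, 166 and 191 CPM with LME-sEVs. The groups did not overlap, and LME-sEV replicate 3 was the nearest to the controls. Its means were 219.9 ± 10.4 CPM (SD, n = 4) and 174 ± 15.5 CPM (SD, n = 3), a log2 fold change of -0.34 (SE 0.08, 95% interval -0.51 to -0.17, FDR = 0.0124). The FDR was 0.07 without LME-sEV replicate 1 and 0.0867 without LME-sEV replicate 2, and the log2 fold change ranged from -0.42 to -0.29 over the 7 leave-one-out fits. The gene lies at chr2:162931528-162937121 and overlaps no other annotated exon.

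Srsf1, the founding member of the family and a regulator of exon choice, export and translation, measured 431, 481, 458 and 437 CPM with HCME-sEVs. With LME-sEVs it measured 383, 379 and 387 CPM, the LME-sEV libraries lying within a few CPM of each other and below every control. The means were 452 ± 22.4 CPM (SD, n = 4) and 383 ± 4.17 CPM (SD, n = 3), a log2 fold change of -0.24 (SE 0.07, 95% interval -0.39 to -0.09, FDR = 0.0431). Among the 7 leave-one-out fits the call held only without HCME-sEV replicate 1 (FDR = 0.0238). Leaving out any other library gave an FDR of 0.0517 (HCME-sEV replicate 4), 0.0594 (HCME-sEV replicate 3), 0.122 (LME-sEV replicate 1), 0.131 (LME-sEV replicate 3), 0.153 (HCME-sEV replicate 2) or 0.155 (LME-sEV replicate 2). Srsf1 lies at chr11:88047373-88053755, with the antisense gene Gm11508 across part of it.

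Hnrnpdl, a relative of hnRNP D that binds AU-rich RNA, fell most of all 30 members. It measured 688, 591, 557 and 608 CPM with HCME-sEVs and 495, 423 and 445 CPM with LME-sEVs. The highest LME-sEV library lay well below the lowest control. Its means were 611 ± 55.3 CPM (SD, n = 4) and 454 ± 37 CPM (SD, n = 3), a log2 fold change of -0.43 (SE 0.08, 95% interval -0.60 to -0.25, FDR = 0.00307). It ranked 199 among the tested genes by p, and its FDR stayed at or below 0.0399 in all 7 leave-one-out fits. The gene lies at chr5:100033577-100039664 and overlaps no other annotated exon. The log2 fold change of its paralog Hnrnpd (AUF1), a destabilizer of AU-rich mRNAs, was -0.09 (95% interval -0.26 to 0.09, FDR = 0.588).

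**Figure D1:**
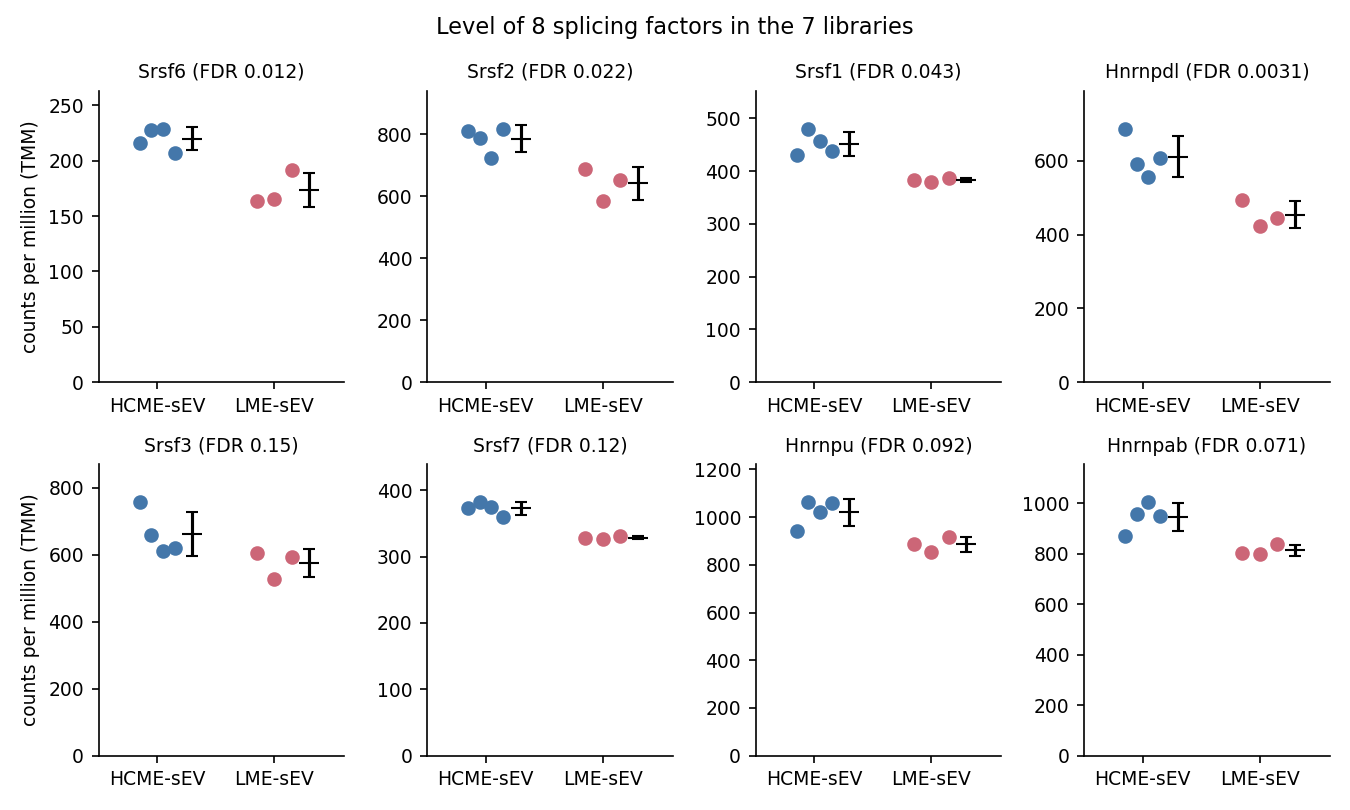
Level (CPM scaled by TMM, vertical axes from 0) of 8 genes in each HCME-sEV library (blue, n = 4) and LME-sEV library (red, n = 3), with the mean and SD in black; the top row holds the 4 genes under an FDR of 0.05 and the bottom row other SR and hnRNP genes that were abundant or whose groups did not overlap. In each panel every red point lies below every blue point, with gaps that are small for Srsf3 (606 against 613 CPM) and wide for Hnrnpdl (495 against 557 CPM).

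Within the SR family, 3 of 10 genes (30%) were called lower, against 5.21% of all tested genes and 8.73% of the 5496 tested genes whose mean count was at least that of the lowest member. None of the 10 was called higher by edgeR, DESeq2 or limma-voom, and none was higher at an unadjusted p under 0.05, against 3.75% of tested genes at an FDR under 0.05 and 10.4% at an unadjusted p under 0.05. At an unadjusted p under 0.05, 6 of 10 were lower, against 12.3% of tested genes. Over all tested genes, 658 were called lower and 473 higher, and scaling by library size alone turned this to 465 lower and 614 higher, with 2 of the 10 SR genes and Hnrnpdl still called lower. The median log2 fold change of the 10 genes was -0.19, and that of all tested genes was 0.01.

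Srsf3, the smallest SR protein and a factor in mRNA export, and Srsf7, a close relative with a zinc knuckle, did not pass the FDR although their groups did not overlap. Srsf3 measured 757, 658, 613 and 620.4 CPM with HCME-sEVs and 606, 527 and 594 CPM with LME-sEVs, a log2 fold change of -0.20 (95% interval -0.38 to -0.03, FDR = 0.152). Srsf7 measured 373, 382, 375 and 359.9 CPM with HCME-sEVs and 328, 327 and 331 CPM with LME-sEVs, a log2 fold change of -0.18 (95% interval -0.33 to -0.04, FDR = 0.119). For Srsf3 the lowest control exceeded the highest LME-sEV library by a few CPM and HCME-sEV replicate 1 lay far above the other controls, whereas both groups of Srsf7 were tight. Exact permutation of the library labels (two-sided, 35 ways to choose 3 of 7) gave p = 0.0286 for Srsf7 and p = 0.0857 for Srsf3. It also gave 0.0286, the smallest p this design allows, for Srsf1, Srsf2 and Srsf6.

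Of the remaining SR genes, Srsf11, Srsf10 and Srsf9 had log2 fold changes of -0.19, -0.16 and -0.14, with overlapping groups and FDRs of 0.136, 0.265 and 0.336. Srsf11 passed only without HCME-sEV replicate 3 (FDR = 0.045). Srsf5, whose mRNA is known to respond to growth signals, and Srsf4, a relative of Srsf5 and Srsf6, had estimates above 0. Srsf5 measured 289.6 to 319 CPM in the controls and 293 to 345 CPM with LME-sEVs (log2 fold change 0.04, 95% interval -0.13 to 0.20, FDR = 0.84). Srsf4, the least abundant, measured 90.3 to 119.7 CPM in the controls and 112 to 129.7 CPM with LME-sEVs (log2 fold change 0.14, 95% interval -0.06 to 0.35, FDR = 0.403). The related genes Srsf4, Srsf5 and Srsf6 thus had estimates of both signs, and the balance between them can be read within each library. The counts of Srsf6 per count of Srsf4 were 2.39, 1.98, 2.12 and 1.73 in the HCME-sEV libraries and 1.45, 1.43 and 1.48 in the LME-sEV libraries. Srsf6 per Srsf5 was 0.745, 0.714, 0.728 and 0.677 in the controls and 0.534, 0.565 and 0.555 with LME-sEVs. Neither ratio overlapped between groups, as Srsf6 alone did not, so the ratios are not a result separate from its fall. Hnrnpdl per Hnrnpd, by contrast, overlapped, at 3.26, 2.43, 2.26 and 2.87 in the controls and 2.39, 2.09 and 1.90 with LME-sEVs. Hnrnph1 per Hnrnph2 was 6.10, 4.70, 4.96 and 5.06 in the controls and 4.15, 4.46 and 4.09 with LME-sEVs, without overlap. Since these 4 pairs were picked after the values were seen, no test is given. How often other pairs of genes separate was not computed.

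**Figure D2:**
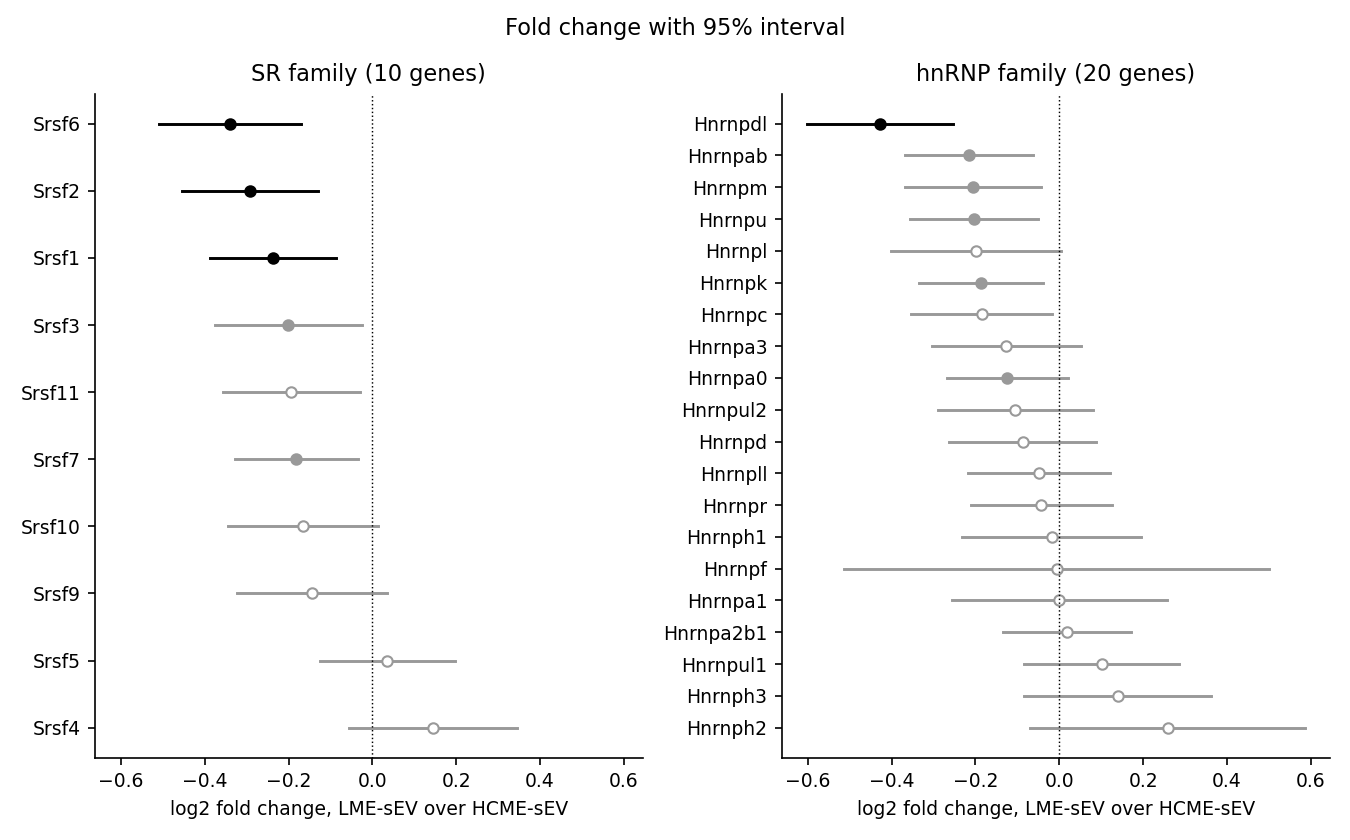
Log2 fold change (LME-sEV over HCME-sEV, horizontal axis) of the 10 SR and 20 hnRNP genes with the 95% interval of the edgeR fit; black marks an FDR under 0.05 and filled points mark genes whose groups did not overlap. The 4 black genes lie at -0.43 to -0.24, and the estimates run from -0.43 (Hnrnpdl) to 0.26 (Hnrnph2).

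In the hnRNP family, Hnrnpdl was the 1 gene of 20 (5%) called lower, a share near the 5.21% of all tested genes and under the 8.73% of the genes at least as abundant. DESeq2 called 2 of 20 and limma-voom 1 of 20. No hnRNP gene was called higher by any of the 3 tools or at an unadjusted p under 0.05, and 6 of 20 (30%) were lower at that unadjusted p, against 12.3%. The median log2 fold change was -0.10, and 15 of 20 estimates were below 0, as were 8 of 10 in the SR family, against 48.5% of all tested genes and 57.3% of those at least as abundant as the lowest member. Without HCME-sEV replicate 1, the count of hnRNP genes called lower was 4, with Hnrnpab (FDR = 0.0208), Hnrnpl (FDR = 0.0254) and Hnrnpu (FDR = 0.0279) beside Hnrnpdl.

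The most abundant hnRNP genes were Hnrnpu, a nuclear scaffold protein, and Hnrnpab, a binder of AU-rich RNA related to hnRNP D. Hnrnpu measured 939.6, 1063, 1019 and 1058 CPM with HCME-sEVs and 886, 854 and 918 CPM with LME-sEVs, a log2 fold change of -0.20 (95% interval -0.36 to -0.05, FDR = 0.0921). Hnrnpab measured 870.0, 957, 1004 and 949 CPM with HCME-sEVs and 804, 799 and 838 CPM with LME-sEVs, a log2 fold change of -0.22 (95% interval -0.37 to -0.06, FDR = 0.0707). In both genes every LME-sEV library was below every control and HCME-sEV replicate 1 was the lowest control. DESeq2 called Hnrnpab (FDR = 0.0336) and not Hnrnpu (FDR = 0.0505). Hnrnpm, Hnrnpk and Hnrnpa0 also had groups that did not overlap, with log2 fold changes of -0.21, -0.19 and -0.12 and FDRs of 0.108, 0.112 and 0.306. In all, 5 of 10 SR genes and 6 of 20 hnRNP genes were lower in every LME-sEV library than in every control, against 10.8% of tested genes, and 0 of 30 were higher in every one, against 9.49%.

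Not all hnRNP genes had low estimates. Hnrnpa2b1, which packages RNA and is known to sort microRNAs into exosomes, was the third most abundant and measured 842 to 972 CPM in the controls and 917 to 959 CPM with LME-sEVs. Its log2 fold change was 0.02, with a 95% interval of -0.13 to 0.17 (FDR = 0.923). The log2 fold change of Hnrnpa1, the best studied silencer of exons, was 0.00 (95% interval -0.26 to 0.26, FDR = 1), and that of Hnrnpll, the CD45 regulator, was -0.05 (95% interval -0.22 to 0.12, FDR = 0.79). These intervals exclude changes as large as a log2 fold change of 1 and do not show that the levels were the same. Hnrnpll was also steady among the libraries, at 109 to 122 CPM in the controls and 109 to 113 CPM with LME-sEVs.

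Hnrnpf, Hnrnph1, Hnrnph2 and Hnrnph3 encode related proteins that bind runs of G, and several of them varied between libraries of the same group. Hnrnpf measured 40.5, 94.3, 116 and 62.9 CPM with HCME-sEVs and 50.3, 71.2 and 108 CPM with LME-sEVs, so that libraries of the same group differed by more than the groups did. The HCME-sEV mean was 78.3 ± 33.3 CPM (SD, n = 4), and the LME-sEV mean was 76.6 ± 29.3 CPM (SD, n = 3). Its 95% interval, -0.51 to 0.50 on the log2 scale, was the widest among the 30 members. Hnrnph2 measured 17.3, 31.2, 28.5 and 29.1 CPM with HCME-sEVs and 32.8, 27.6 and 34.5 CPM with LME-sEVs (log2 fold change 0.26, FDR = 0.353). Hnrnph1 measured 106, 146, 142 and 147 CPM with HCME-sEVs and 136, 123 and 141 CPM with LME-sEVs (log2 fold change -0.02, FDR = 0.946). In both, HCME-sEV replicate 1 was the lowest of the 7 libraries. The log2 fold change of Hnrnph3 was 0.14 (FDR = 0.483).

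The other hnRNP genes had groups that overlapped, and among them Hnrnpc alone had a 95% interval without 0. Hnrnpc, which binds uridine-rich tracts and masks cryptic exons, had a log2 fold change of -0.18 (95% interval -0.35 to -0.02, FDR = 0.171). Hnrnpl, a CA-repeat binder and paralog of Hnrnpll, had a log2 fold change of -0.20 (FDR = 0.233) and passed only without HCME-sEV replicate 1, which held its lowest level (224 CPM, against 280.3 to 325 CPM in the other controls). The log2 fold changes of Hnrnpa3, Hnrnpul2, Hnrnpr and Hnrnpul1 were -0.13, -0.11, -0.04 and 0.10, with FDRs of 0.41, 0.529, 0.816 and 0.545.

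**Figure D3:**
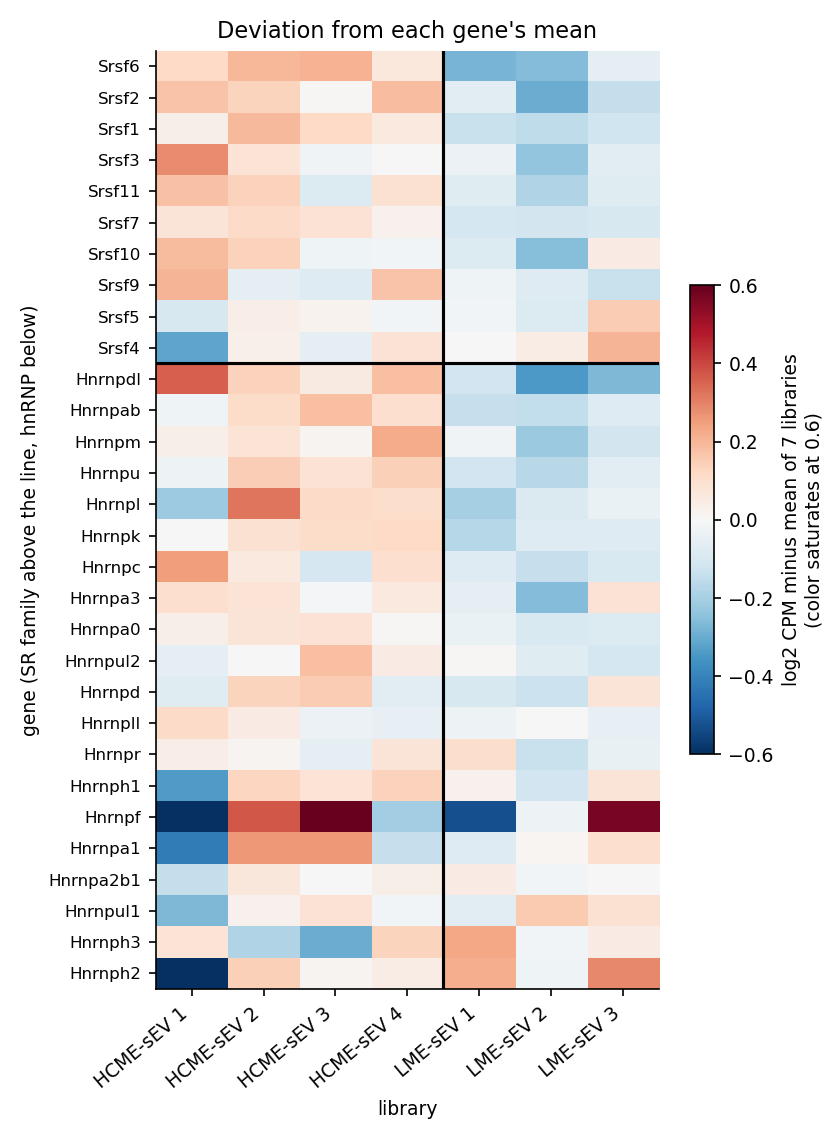
Difference of each gene's log2 CPM in a library from its mean over the 7 libraries (color, saturated at 0.6), with SR genes above the horizontal line, hnRNP genes below it, and HCME-sEV libraries left of the vertical line. LME-sEV replicate 2 holds the lowest level of 6 SR and 9 hnRNP genes, HCME-sEV replicate 1 holds the lowest level of 7 hnRNP genes, and Hnrnpf swings between libraries of both groups.

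LME-sEV replicate 2 was the library in which the families were lowest. It held the lowest level of 6 of 10 SR genes and 9 of 20 hnRNP genes, and without it 0 of 10 SR genes (4 at an unadjusted p under 0.05) and 1 of 20 hnRNP genes passed the FDR in edgeR, while the calls over all tested genes went from 658 to 223 lower and from 473 to 168 higher, and the median log2 fold changes were -0.15 and -0.05. The summed level of the 10 SR genes was 3947, 3890.4, 3644 and 3779 CPM with HCME-sEVs and 3411, 3153 and 3462 CPM with LME-sEVs. For the 20 hnRNP genes it was 7685, 8219, 8008 and 8136 CPM with HCME-sEVs and 7274, 7026 and 7382 CPM with LME-sEVs. In CPM scaled by TMM, both sums were lower in all 3 LME-sEV libraries than in any control. The SR genes took 0.375% ± 0.00855 (SD, n = 4) of all counts with HCME-sEVs and 0.339% ± 0.0185 (SD, n = 3) with LME-sEVs, and the hnRNP genes took 0.788% ± 0.0331 and 0.733% ± 0.0233. As unscaled shares, the SR groups still did not overlap (0.363% in HCME-sEV replicate 3, 0.355% in LME-sEV replicate 3). The hnRNP groups did overlap, with 0.740% in HCME-sEV replicate 1 and 0.757% in LME-sEV replicate 3. Library totals ran from 3689831 to 5030522 counts, and LME-sEV replicate 2 was not the shallowest library, with 4402123 counts.

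**Figure D4:**
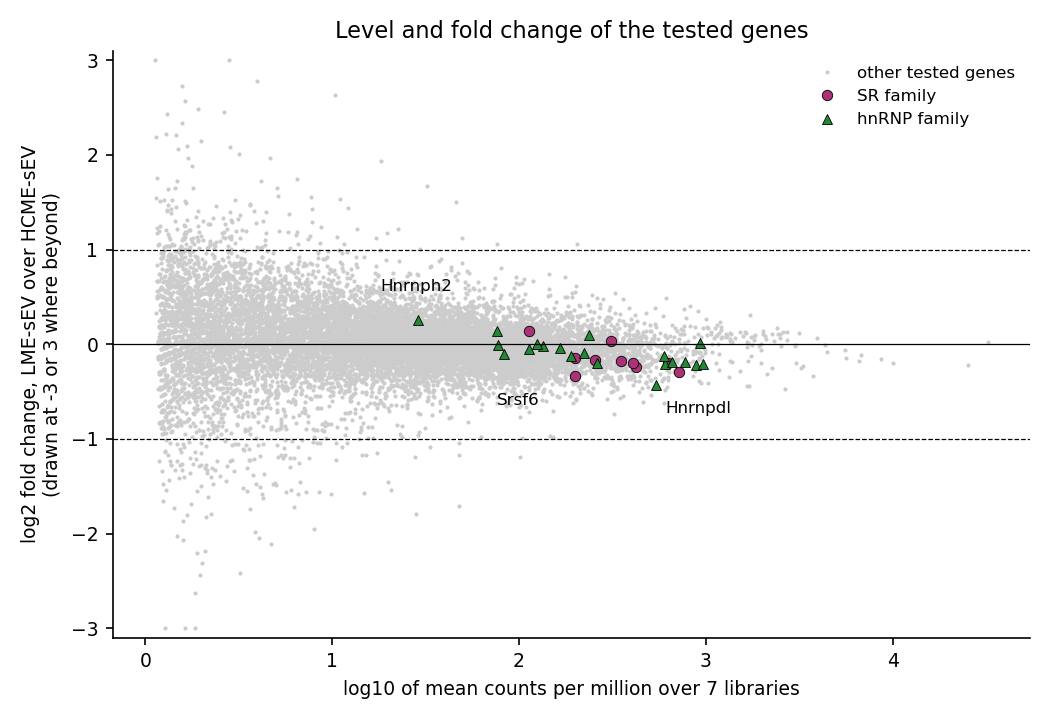
Log2 fold change (LME-sEV over HCME-sEV, vertical axis) against mean level (log10 CPM, horizontal axis) of the 12623 tested genes (gray), with SR genes as circles and hnRNP genes as triangles; dashed lines mark log2 fold changes of -1 and 1. All 30 splicing factors lie inside the dashed lines, in the upper part of the range of levels.

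The members share features of their annotation. At least 1 NMD transcript was annotated (GENCODE, GRCm38) for 9 of 10 SR genes (90%) and 10 of 20 hnRNP genes (50%), against 30.3% of the 10820 tested protein-coding genes. A retained-intron transcript was annotated for 80%, 70% and 61.8%. The median number of annotated transcripts per gene was 7.5, 8 and 5 in the same sets, and the shares were not compared at equal numbers. All 4 genes that fell have both NMD and retained-intron transcripts, but so do members that were not called, such as Srsf5, Hnrnpa2b1, Hnrnpd and Hnrnpll. A tag at the 3′ end counts a stable and an NMD transcript alike where they share an end. NMD or retained-intron transcripts that end within 50 bases of a coding one numbered 3 for Srsf2, 1 for Srsf1, 1 for Hnrnpdl and 0 for Srsf6. Reads were counted per gene, so these counts do not report on splicing itself. The 30 genes lie on 16 chromosomes. Near-identical 3′ ends (over 95% identity across 200 bases) were found in other annotated genes for Hnrnpa3 (25 genes), Hnrnpf (7), Hnrnpk (2), Hnrnpc (1) and Hnrnpr (1). The counts of these other genes together averaged 5 per library for Hnrnpa3 and fewer for the rest, so the values of these 5 are uncertain to the extent that the counting split reads between copies. None of the 4 genes that fell is among them.

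The other parts of the splicing machinery were read from gene lists. These are mRNA levels at 48 h, and protein was not measured in these libraries. At a later time the study reports a rise of proteins with roles in gene expression, RNA processing and translation in CD8+ T cells given LME-sEVs. The mRNA and protein levels were not compared here. Of 50 tested snRNP and spliceosome core genes, 14 (28%) were called lower and 0 higher, with a median log2 fold change of -0.16, against 5.21% lower and 3.75% higher over all tested genes and 8.73% lower over those as abundant as the members. The strongest were Snrpd3, a core Sm protein (log2 fold change -0.56, FDR = 0.000398), Prpf19, a ubiquitin ligase of the active spliceosome (-0.53, FDR = 0.00141), Prpf31 of the tri-snRNP (-0.56, FDR = 0.002) and Sf3b4 of the U2 snRNP (-0.40, FDR = 0.0052). Of 15 exon junction complex and NMD genes, 5 (33.3%) were called lower, with a median of -0.16. Among them were the junction complex core members Rbm8a (log2 fold change -0.38, FDR = 0.00386), Magoh (-0.38, FDR = 0.00518) and Magohb (-0.32, FDR = 0.0293).

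Among 23 hnRNP-like genes with other names, 3 (13%) were called lower with a median of -0.14. This share and those of the next 3 lists stand against the same 5.21% and 8.73%. Ptbp1, the polypyrimidine tract binder also known as hnRNP I, had a log2 fold change of -0.38 (FDR = 0.00295) and Tardbp one of -0.35 (FDR = 0.0193). Of 25 SR-related proteins only Bclaf1 was called (4%, -0.32, FDR = 0.0231), with a median of -0.12. Of 11 tested kinases and importers of SR and hnRNP proteins only Tnpo3, the importer of SR proteins, was called (9.09%, -0.25, FDR = 0.0465), with a median of -0.01, and of 13 other splicing regulators only Mbnl3 was called (7.69%, -0.45, FDR = 0.0144), with a median of -0.05. Several of these calls were lost when 1 library was left out. Tnpo3 held only without HCME-sEV replicate 1 or 3 among the leave-one-out fits (FDR = 0.0552 to 0.179 without any other library) and was lost under library size alone (FDR = 0.106) and with no filter (FDR = 0.0964). Magohb held only without HCME-sEV replicate 3 or 4 (FDR = 0.0581 to 0.107 without any other library) and was lost under library size alone (FDR = 0.06). Bclaf1 was lost without HCME-sEV replicate 2 (FDR = 0.0679), LME-sEV replicate 2 (FDR = 0.159) or LME-sEV replicate 3 (FDR = 0.115). Tardbp and Mbnl3 were lost without LME-sEV replicate 2 (FDR = 0.149 and 0.0909) or 3 (FDR = 0.0964 and 0.097). Among the 137 tested genes of these 6 lists, 0 were called higher by edgeR, DESeq2 or limma-voom, against 3.75% of all tested genes in edgeR, and 3 were higher at an unadjusted p under 0.05 in edgeR (Pcbp4, Pnisr and Celf2). The lists, like the families, were described by counts and medians alone.

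Markers of the sorted cells and of other cells were read beside these results. The counts of markers called higher stand against 3.75% of all tested genes called higher at an FDR under 0.05. All 10 CD8+ T cell markers were tested, 2 of them (Cd3e and Cd3g) were higher with LME-sEVs, and their summed level was 4258 to 4399 CPM in the controls and 4569 to 5074 CPM with LME-sEVs. Cd4 reached at most 3 counts, and of 4 CD4 T cell markers only Zbtb7b was tested (higher). Of the basophil and mast cell markers, 3 of 8 tested were higher (Mcpt8, Prss34 and Prg2), with a summed level of 13.3 to 43.1 CPM against 38.2 to 57.5 CPM. These calls rest on few counts, since Prss34 and Prg2 were at 0 in HCME-sEV replicate 1 and reached at most 41 counts in any library. Of the erythroid and platelet markers, 3 of 7 tested were higher (Hba-a1, Pf4 and Ppbp), with a summed level of 74.7 to 182 against 158 to 205 CPM. The platelet gene Pf4 held the largest part, and its groups overlapped (108 CPM in HCME-sEV replicate 3, 92.7 CPM in LME-sEV replicate 3). Itga2b and the globin genes Hba-a2, Hbb-bt and Hbb-bs were not called, with a log2 fold change of -0.01 for Hbb-bs (FDR = 0.981). Of the B cell markers 2 of 5 were higher, Ighm and Vpreb3 (232 to 275 against 312 to 338 CPM, mostly Ighm). Of 3 tested myeloid markers 0 were called by edgeR, DESeq2 or limma-voom and 2 had an unadjusted p under 0.05 in edgeR (100.7 to 136 against 132 to 174 CPM), and no NK cell marker reached the minimum. No listed marker was at 0 in all 7 libraries. The part of these cells in the splicing factor results was not tested.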

How the data were processed

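CD8+ T cells were profiled by 3′ RNA-seq with unique molecular identifiers (UMIs). Per the study's methods and the submitters' processing notes, reads were trimmed (cutadapt 2.10), aligned to GRCm38 (STAR 2.5.3a), deduplicated (UMI-tools 1.0.0) and counted per gene (featureCounts, Subread 2.0.0). The annotation release and strand setting are not given in the sources used here. The values deposited by the authors are raw counts for 7 libraries. Genes under a mean of 5 counts were left out, leaving 12623 of 55367. After TMM scaling, LME-sEV (n = 3) was compared with HCME-sEV (n = 4) with the quasi-likelihood test of edgeR 4.0.16, adjusting p-values over all tested genes (Benjamini-Hochberg). The script was tested on simulated data. DESeq2 1.42.0, limma 3.58.1 (voom), other scalings and filters, a replicate block and leave-one-out fits were alternatives. No libraries agreed within counting noise. Full values were given for members under an FDR of 0.05, for the 2 most abundant of each family and for at most 2 per family whose groups did not overlap, and list genes by smallest p, some of which are not reported here. The values of other members, and the pairs of related genes, were chosen after seeing the data. Members and lists were chosen with earlier results of these data known. Promoters came from RefSeq (GRCm38.p6), gene spans from GENCODE. Copies were sought with BLAST in the last 300 bases of each transcript. Totals of 3689831 to 5030522 counts limit precision most for the least abundant members.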

Additional observations from a re-analysis of the deposited data

Results flagged for a closer look

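In 3 of 44 genes looked at (the 30 members and 14 list genes), 1 of the 4 HCME-sEV libraries stood apart from the other 3 on the log2 CPM scale, by a gap above Dixon's 95% critical share of the group's range. Chance alone would give about 2.2 of 44. Hnrnph1 was low in HCME-sEV replicate 1 (106 CPM, gap 0.88 of the range), and Hnrnph2 was low in the same library (17.3 CPM, gap 0.849 of the range). Without that library the log2 fold changes were -0.12 for Hnrnph1 (FDR = 0.443) and 0.10 for Hnrnph2 (FDR = 0.733). Mbnl3, an alternative splicing regulator of the muscleblind family, was low in HCME-sEV replicate 3 (50.1 CPM, gap 0.900 of the range), and its log2 fold change was -0.45 (FDR = 0.0144) with that library and -0.54 (FDR = 0.00243) without it.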

How the results depend on the processing

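The other settings tried were other scalings and filters, DESeq2, limma-voom, a replicate block and leaving out each library. The number of SR genes called lower was 3 and stayed at 2 to 4 over the alternatives that kept all libraries, but ranged from 0 to 3 when 1 library was left out. It was 1 without HCME-sEV replicate 2 or 4 or LME-sEV replicate 1 or 3, and 0 without LME-sEV replicate 2. Scaling by library size alone and no filter each lost Srsf1 (FDR = 0.101 and 0.091). The number of hnRNP genes called lower was 1, was 2 by DESeq2, and ranged from 1 to 4 when 1 library was left out, with 4 without HCME-sEV replicate 1. Leaving 1 library out, the calls over all tested genes ranged from 223 to 761 lower and from 168 to 544 higher. The median log2 fold changes stayed between -0.22 and -0.14 (SR) and between -0.14 and -0.05 (hnRNP), and no called member or list gene changed sign. At an unadjusted p under 0.05, an alternative chosen after seeing the data, 6 SR and 6 hnRNP genes were lower, and leaving out the 5 genes with near-identical 3′ ends, likewise chosen afterwards, changed no count of calls at the FDR and took the members lower at an unadjusted p under 0.05 from 12 to 10. Among the 30 members and 14 list genes, 41 alternative fits lost a call, 6 gained one and 22 turned the sign of an estimate that was never called. The cause of these differences was not tested. With the replicate number as a block, 4 SR genes (Srsf3 added, FDR = 0.0469) and 1 hnRNP gene were called lower, and 860 genes lower and 594 higher over all. The deviations of same-numbered libraries correlated by 0.0721, 0.155 and 0.0268, and those of other pairs by -0.206 to 0.0803. Not every library correlated best with its own number, and the labels name no shared animal or day. The main test therefore took the libraries as unpaired, and whether the numbers pair them was not settled.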
